A study of Schmidtea mediterranea with 177 samples.

Results

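The cells described here are the 62 planarian cells that the submitters' labels class as non-muscle, out of 177 single-cell RNA sequencing libraries of *Schmidtea mediterranea*. The other 115 cells carry the label muscle. Members were chosen by this label alone. It came from the authors, who used principal components of these same counts together with *troponin*, so differences between non-muscle and muscle cells are given as descriptions, without a test.

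Planarians are flatworms that replace all of their cell types from neoblasts, the dividing stem cells of the body, which are marked by the Piwi gene *smedwi-1*. Cells that leave this pool for the skin pass through post-mitotic stages on their way to the surface, and the transcription factors *zfp-1* and *p53* are known to act in this epidermal lineage. Body-wall muscle is a different tissue that expresses many of the patterning genes of the adult, such as the secreted Wnt proteins, their Frizzled receptors and the *ndl* genes of the FGF receptor-like family. The label non-muscle does not name a cell type, and the question here is which transcripts set cells or groups of cells apart within this mixed class.

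Both classes came from asexual animals of the CIW4 strain that had been starved for 7 to 14 days. Along the anteroposterior (AP) axis the animals were cut into 10 regions, with region 1 at the head end and region 10 at the tail end. Only the midline was used, and the pharynx was removed from regions 5 and 6. Hoechst-stained cells with a 2N DNA content were sorted as non-dividing, a qRT-PCR screen of their cDNA for muscle markers followed, and libraries were made with SmartSeq2 and Nextera XT from cells that passed. All 62 non-muscle cells had therefore passed a screen for muscle markers. Neither an animal nor a day nor a plate is named for a cell, so the cells of a region count as 1 sample and cells are not replicates.

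The 62 non-muscle cells were spread unevenly: 11 came from region 1, 3 each from regions 3 and 4, 6 from region 5, 9 from region 6, 11 from region 7, 7 from region 8, 5 from region 9 and 7 from region 10, and region 2 had 0. They had 53607 to 2702758 reads, with a median of 304656, against 19205 to 3884642 reads and a median of 259378 in muscle cells. A transcript was counted as found in a cell with more than 2 reads, and levels are given in cpm, the count of a transcript divided by all reads of the cell and scaled to 1000000. For shares of cells, 95% intervals are given by the exact binomial method. They treat cells as independent draws and cover counting error only. Variation between animals, days or plates is not covered, since none of these is named for a cell. SmartSeq2 reads carry no molecular identifiers. Cells are given by their label, which joins the region to a running number (r05 is region 5). The running numbers were split into range A (below 450), range B (450 to below 530) and range C (530 and above), with 16, 17 and 29 non-muscle cells. What the ranges stand for is not given by the labels. Gene names are those of the planarian gene or of the best sequence match, and a transcript without one is given by its contig. Because the ranges overlap the regions only in part, results are also given within a range. As libraries, 2 cells stood apart. Cell r09_522 had the most reads, 2702758, but 1799 transcripts, and in cell r06_449 a single transcript without a name, dd_Smed_v4_238_1_1, took 47.3% of the reads.

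The marker given for this class belongs to the epidermal list of the authors' principal components, described below. It is not independent of the label, so its share does not check the label. The *beta-actin* contig dd_Smed_v4_285_0_1 was found in 54 non-muscle cells (87.1% of 62, interval 76.1% to 94.3%) and in 12 of the 115 muscle cells (10.4%, interval 5.51% to 17.5%). Its median was 329.6 cpm in non-muscle cells and 0 cpm in muscle cells. The marker was therefore present in most but not all cells of the class, and it was weakest in region 3, where 1 of the 3 cells had it.

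Lists of 12 transcripts from each end of the 2 principal components of the authors gave a wider view. They were computed on these cells, so they are not independent of the classes. All 12 transcripts of the epidermal list were found in a larger share of non-muscle than of muscle cells, and the intervals of the 2 classes did not overlap for any of the 12. For comparison, 64.5% of the 21464 transcripts found in any cell had the larger share in non-muscle cells. No such background was computed for intervals that did not overlap or for levels in all regions. Counts of these kinds, for this and the other lists, stand without one. *ZFP-1* (dd_Smed_v4_2946_0_1) was found in 40 of 62 non-muscle cells and in 0 of 115 muscle cells, which allows a share of up to 3.16% in muscle. *VIL1* (dd_Smed_v4_929_0_1), named by its match to human villin, an actin-bundling protein, was found in 41 non-muscle cells and 0 muscle cells. *P53* (dd_Smed_v4_5563_0_1) was found in 29 non-muscle cells and 1 muscle cell. For 8 of the 12, the summed level was higher in non-muscle cells in all 9 regions that held both classes. Of the 12 transcripts of the neoblast list, 2 had the larger share in non-muscle cells, and for 4 the interval lay below that of muscle cells. Of the 12 of the differentiated list, 10 had the larger share in non-muscle cells, and for 2 the interval lay above that of muscle cells and for 1 below.

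The muscle list ran the other way. All 12 of its transcripts were found in a smaller share of non-muscle cells, and all 12 were lower in non-muscle than in muscle cells in each of the 9 regions. The summed level of the list was 4.86 to 13778.5 cpm in non-muscle cells, with a median of 172 cpm, and 781 to 98875 cpm in muscle cells, with a median of 16690 cpm. The ranges of the summed level overlapped in a few non-muscle cells. Most non-muscle cells had little of the list: 54 of the 62 had 3 or fewer of its transcripts and 3 had none.

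**Figure D1:**
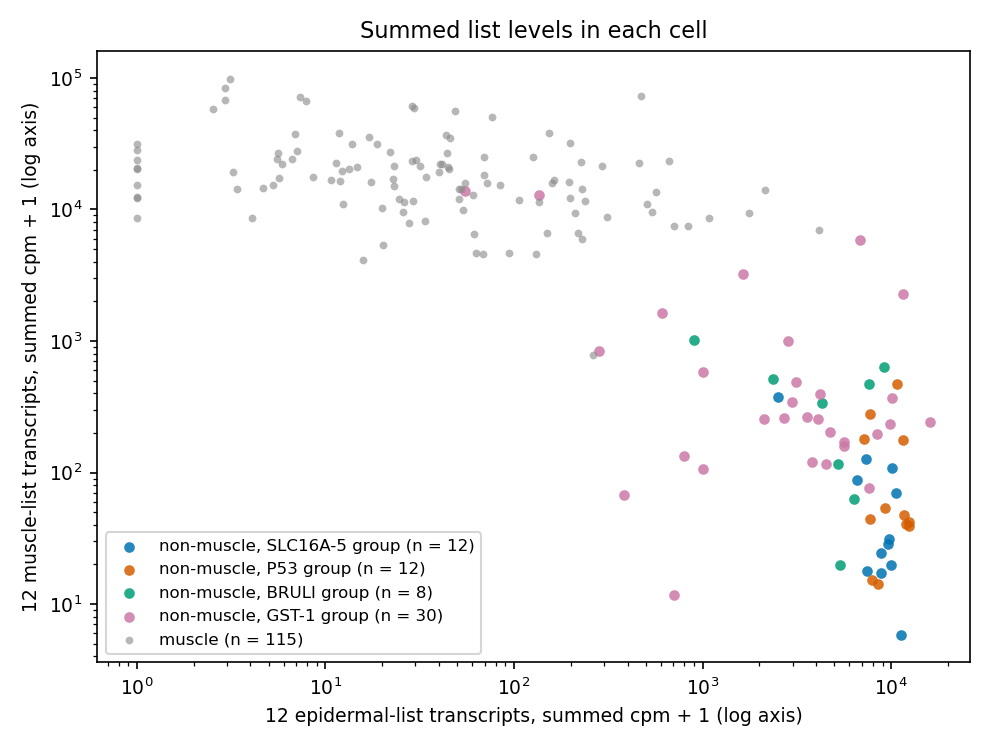
Each point is 1 cell, with the summed level of the 12 epidermal-list transcripts on the x axis and of the 12 muscle-list transcripts on the y axis, both as cpm + 1 on log axes. Non-muscle cells, coloured by the 4 groups described in the text, lie mostly at the lower right with a median of 6743 cpm of the epidermal list, and muscle cells (grey) at the upper left with a median of 32.8 cpm, while 2 cells of the GST-1 group lie among the muscle cells.

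Troponin I (*TNNI2*, dd_Smed_v4_323_0_1), part of the contractile apparatus, was the member of the muscle list found most often, in 52 of the 62 non-muscle cells. The share differed with the number range. Troponin I was found in 6 of 16 cells of range A, 17 of 17 of range B and 29 of 29 of range C, at medians of 5.23, 37.2 and 77.1 cpm. In muscle cells of the same ranges the medians were 1106, 1557 and 676 cpm. After each cell had been thinned to 50000 reads, 26 of the 62 non-muscle cells had more than 2 reads of it. The muscle transcript *COL1A2*, a fibrillar collagen, was found in 2 non-muscle cells.

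The muscle list was found at 6 or more of its 12 transcripts in 4 non-muscle cells, against all but 1 of the 115 muscle cells. In cell r09_522 the 9 transcripts found added up to little, with 113.2 cpm of *COL4A6* (dd_Smed_v4_1579_0_1) and no other above 6.66 cpm. The other cells, r04_382, r04_391 and r05_424, had higher levels of the list. Their summed levels of the muscle list were 5884, 12884 and 13778.5 cpm, and the median muscle cell was at 16690 cpm. They differed in the epidermal list. Its summed level was 6869 cpm in r04_382, near the class median of 6743 cpm. It was 134.5 cpm in r04_391 and 54.02 cpm in r05_424. The *beta-actin* contig dd_Smed_v4_285_0_1 was at 835.3 cpm in r04_382 and at 0 cpm in r04_391 and r05_424. These 3 cells were singled out after their values had been seen.

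Collagen IV was part of the muscle-list levels of these 3 cells. For *COL4A6* dd_Smed_v4_1579_0_1, a basement membrane collagen, cells r04_382, r04_391 and r05_424 had 2424, 3550 and 2450.1 cpm, against a median of 2834 cpm in muscle cells. The small heat shock transcript *smallhsp* (dd_Smed_v4_2736_0_1) had 477.3, 1237 and 4383.2 cpm in these cells, against a median of 1356 cpm in muscle cells, and was found in no other non-muscle cell. Troponin I was at 7.46, 13.4 and 15.4 cpm, which is 1, 1 and 4 reads, below the lowest muscle cell at 63.03 cpm. The *COL24A1* contig dd_Smed_v4_402_0_1 had 2, 0 and 0 reads and dd_Smed_v4_649_0_1 had 1, 16 and 0 reads. *FLNA*, named by its match to the actin cross-linker filamin A, was at 0, 1668 and 691 cpm, against a median of 828 cpm in muscle cells. In these 3 cells *COL4A6* dd_Smed_v4_1579_0_1 and *smallhsp* were thus within the range of muscle cells, which starts at 52.07 and 0 cpm. Troponin I was below the range of muscle cells, and *FLNA* differed between the 3. Other non-muscle cells also had this collagen, such as r07_375 at 3206 cpm and r10_503 at 1858 cpm. The 3 cells also had *SMEDWI-1*, at 2021, 1937 and 3307 cpm. They had 2763, 2146 and 2987 transcripts, below the median of 3557.5 for the class. Their reads, 134083, 74356 and 259171, were also below the class median of 304656. After thinning to 50000 reads they had 2139, 1938 and 2107 transcripts, against a class median of 2187. The thinned median was 1899 in the GST-1 group described below, to which they belong. No doublet caller was run on 62 cells, so whether these cells were doublets was not tested.

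To see how the other cells fell apart, the 62 cells were grouped by the 1000 most variable transcripts (5 principal components, Ward linkage). The mean silhouette, a measure of how well cells sit in their own group, was highest at 4 groups, with 0.371, and close behind at 8 groups with 0.363 and 3 groups with 0.362. The groups are called by the named transcript that differed most from the other non-muscle cells: the SLC16A-5 group (12 cells), the P53 group (12 cells), the BRULI group (8 cells) and the GST-1 group (30 cells). The transcripts that lead a group were among those that formed it, so they are listed without a test, and no group was given a cell type name. Leaving out cells r09_522 and r06_449, which was decided after seeing the data, left every other cell in its group.

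The SLC16A-5 group had many transcripts of its own. *SLC16A-5* (dd_Smed_v4_11486_0_1), a transporter of the solute carrier family, was at 36.7 to 1818 cpm in its 12 cells, with a median of 530.1 cpm, and in the other 50 non-muscle cells at 96.98 cpm at most. It was found in 12 of 12 cells of the group, in 1 of 50 others and in 4 of 115 muscle cells. A set of 122 transcripts was found in at least 80% of the group and in at most 10% of the other non-muscle cells, and 9 of them were in all 12 cells and in no other. Of these 122, 121 were found in at most 10% of muscle cells too. Their median share among muscle cells was 0%. *SLC16A-5* was the single one with a name in the sources used here.

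The leading transcripts without a name had far higher levels. dd_Smed_v4_146_0_2 was at 1229 to 9619 cpm in the group, with a median of 6043 cpm, and at no more than 9.01 cpm in the other non-muscle cells. dd_Smed_v4_2178_0_1 was at 1697 to 8592 cpm, with a median of 5248 cpm, and at no more than 91.5 cpm in the others. Neither passed 25.6 cpm in a muscle cell, so that these transcripts split the group from all other cells without overlap.

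The remaining named leaders were shared with other groups to varying degrees. *DMD* (dd_Smed_v4_5252_0_1), named by its match to dystrophin, which links actin to the membrane, was at 130.2 to 899 cpm in the SLC16A-5 group and was also found in 17 of the other 50 cells. *P53* was at 195 to 2079 cpm in the group. *EPB41L2*, a protein 4.1 of the membrane skeleton, and *FABP7*, a fatty acid-binding protein, were found in all 12 cells with medians of 577.3 and 495.1 cpm. All of these cells had 11 or 12 of the 12 epidermal-list transcripts. None of them had *SMEDWI-1*, which was at 4.198 cpm at most, and *GST-1* and *BRULI* were found in none of them.

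The P53 group had *P53* at higher levels. Its 12 cells were at 427.9 to 2990 cpm with a median of 1593 cpm, against a median of 584.1 cpm in the SLC16A-5 group, and the ranges overlapped. *ZFP-1* was at 290.0 to 1904 cpm, with a median of 684 cpm, and *TRAF-2B* (dd_Smed_v4_4392_0_1), named by its match to an adaptor of tumour necrosis factor receptors, at 644 to 10126 cpm with a median of 5009 cpm. Both were also found in all 12 cells of the SLC16A-5 group, at medians of 282 and 3045 cpm. *SLC16A-5* was found in 0 of 12 cells of the P53 group. Of the neoblast list, *BRULI*, *XIRP2* and *CBFB* were found in 8, 9 and 11 of its 12 cells, against 0, 1 and 3 of the 12 of the SLC16A-5 group. These were chosen after their values had been seen, and not all of the list separated the groups. *RKHD1* and *KHD-1* were found in all 12 cells of both groups and *PC-2* in 0 of both. *HMB-1* was found in 12 of 12 cells of the P53 group and 9 of 12 of the SLC16A-5 group. The leaders of the P53 group without a name also separated these groups. dd_Smed_v4_332_0_1 was found in 10 of 12 cells with a median of 2241 cpm, in 0 of 12 cells of the SLC16A-5 group and in 1 of the other 50 cells. dd_Smed_v4_69_0_1 was found in 10 of 12 cells with a median of 1422 cpm, in 2 of 12 cells of the SLC16A-5 group at no more than 15.3 cpm, and it did not pass 34.9 cpm elsewhere in the class.

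The remaining members of the P53 group's list were found in fewer of its cells. *ACSS1*, named by its match to an acetyl-CoA synthetase, was found in 7 of 12 cells with a median of 204 cpm and in 9 of the other 50. The homeobox gene *hox4b* was found in 7 of 12 cells with a median of 29.7 cpm and in 2 of the other 50. Of the 12 cells, 10 formed a set with both dd_Smed_v4_332_0_1 and dd_Smed_v4_69_0_1, and the exceptions were cell r01_473 and cell r10_556. *SMEDWI-1* was found in 5 of the 12 cells. The group held 4 of the 7 cells of region 8 and no more than 33.3% of the cells of any other region.

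The BRULI group had the highest median of transcripts per cell, 5396.5. Its 8 cells had 4444 to 7091 transcripts and came from regions 5, 6 and 8. It also had the most reads, with a median of 871460. The medians were 355850 in the SLC16A-5 group, 325535 in the P53 group and 211799 in the GST-1 group. At 50000 reads per cell the median of transcripts was 2964, against 2854.5 in the SLC16A-5 group, 2531.5 in the P53 group and 1899 in the GST-1 group. The highest single cell at this depth was in the P53 group, with 3275 transcripts against 3229 in the BRULI group. Whether cells of the BRULI group were doublets was not tested. *BRULI* (dd_Smed_v4_2592_0_1), an RNA-binding protein of the Bruno family that is needed for neoblast maintenance in planarians, was at 0 to 2994 cpm with a median of 753 cpm. It was found in 7 of the 8 cells, in 22 of the other 54 and in 67 of 115 muscle cells, so it did not separate the group. *SLC17A5*, named by its match to the lysosomal sialic acid transporter, was found in 6 of 8 cells with a median of 110 cpm and in 3 of the other 54. The transcript dd_Smed_v4_3021_0_1 was found in all 8 cells, at 61.6 to 1081 cpm, and in 12 of the other 54.

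The GST-1 group was the remainder, with 30 cells and 0 transcripts that met the rule of 80% inside and 10% outside. *GST-1* (dd_Smed_v4_1206_0_1), named by its match to a glutathione S-transferase, was found in 20 of 30 cells with a median of 157 cpm, in 7 of the other 32 and in 91 of 115 muscle cells. *XIRP2* (dd_Smed_v4_921_0_1), named by its match to an actin-binding protein, was found in 26 of 30 cells and in 18 of the other 32. *SMEDWI-1* (dd_Smed_v4_659_0_1) was found in 18 of 30 cells with a median of 232 cpm and a highest value of 3307 cpm, and in 10 of the other 32. Several leaders of this group were thus common in muscle cells as well. The unnamed dd_Smed_v4_2164_0_1 was found in 22 of 30 cells, in 2 of the other 32 and in 93 muscle cells.

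**Figure D2:**
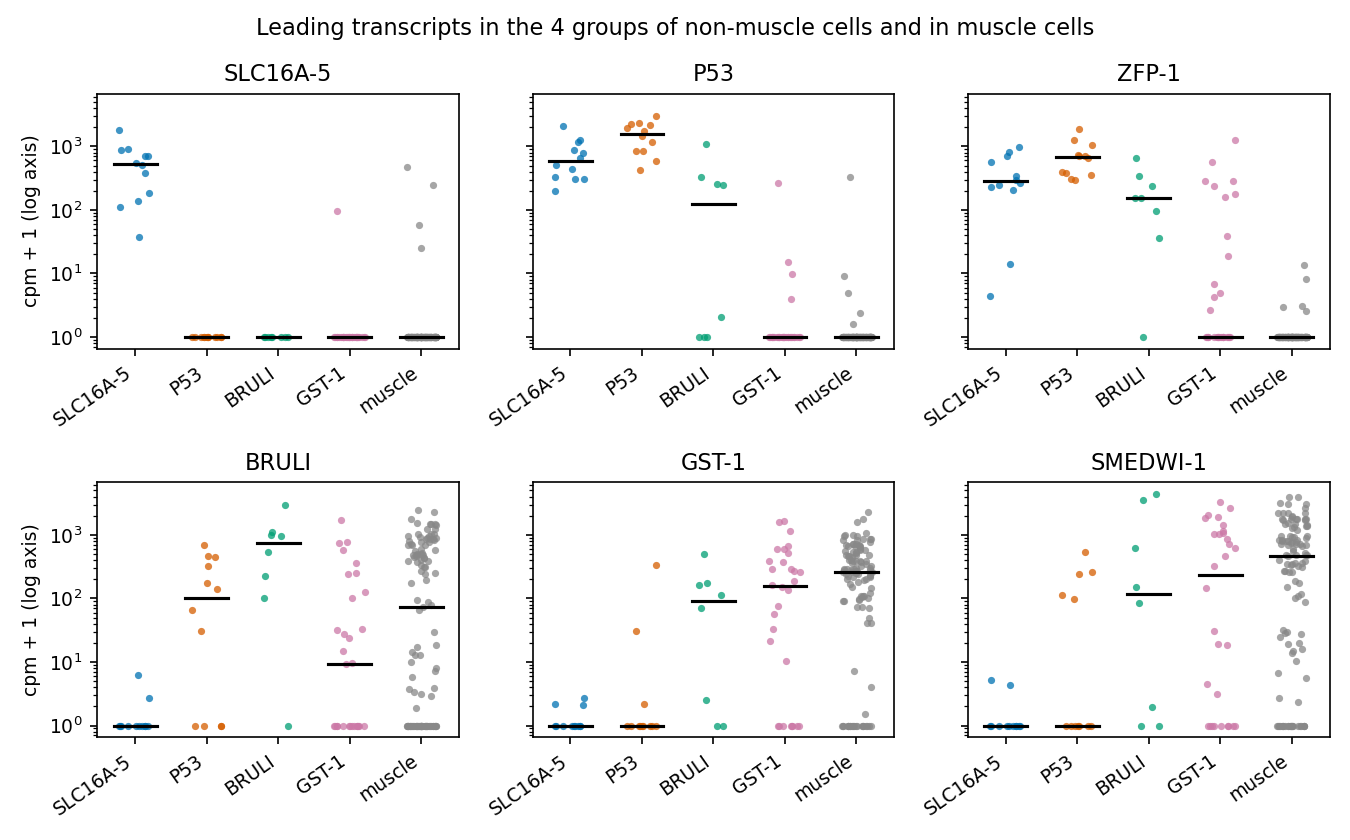
Level of 6 named transcripts, as cpm + 1 on a log axis, in each non-muscle cell by group (left) and in muscle cells (right), with bars at the medians. *SLC16A-5* was found in 12 of 12 cells of its group and in 1 of the other 50 non-muscle cells, while *BRULI*, *GST-1* and *SMEDWI-1* were spread over several groups and muscle cells.

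*SMEDWI-1* was spread over 3 of the groups, in 5 of 12 cells of the P53 group, 5 of 8 of the BRULI group and 18 of 30 of the GST-1 group. In the SLC16A-5 group it was in 0 of 12. It was found in 28 non-muscle cells (45.2% of 62, interval 32.5% to 58.3%) and in 87 of 115 muscle cells (75.7%, interval 66.8% to 83.2%), so it was not particular to non-muscle cells. Within ranges A, B and C its share in non-muscle cells was 31.2%, 29.4% and 62.1%. By region, it was found in 0 of 11 non-muscle cells of region 1, 3 of 3 of region 4 and 6 of 7 of region 10. Other transcripts of the neoblast list went with it to different degrees. *GST-1* was found in 19 of 28 cells with *SMEDWI-1* and in 8 of 34 without it, *JUNLI-1*, of the Jun family, in 27 of 28 and in 19 of 34, and *CBFB*, a core-binding factor subunit, in 27 of 28 and in 18 of 34. *RKHD1*, an RNA-binding protein with KH domains, was found in 28 of 28 and in 34 of 34, and so set no cells apart.

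The SLC16A-5 group came mainly from region 1. It held 9 of the 11 non-muscle cells of region 1 (81.8%, interval 48.2% to 97.7%) and 3 of the 51 cells of regions 3 to 10 (5.88%, interval 1.23% to 16.2%), which came from regions 5, 6 and 10. The contrast was also seen within number ranges. In range A it was 3 of 3 cells of region 1 and 1 of 13 cells of the other regions, and in range B 6 of 8 and 1 of 9. Range C had no cell of region 1. The GST-1 group held 10 of the 11 cells of region 7 and 0 of the 7 cells of region 8. Since a region is 1 sample, these shares describe the cells and were not tested.

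**Figure D3:**
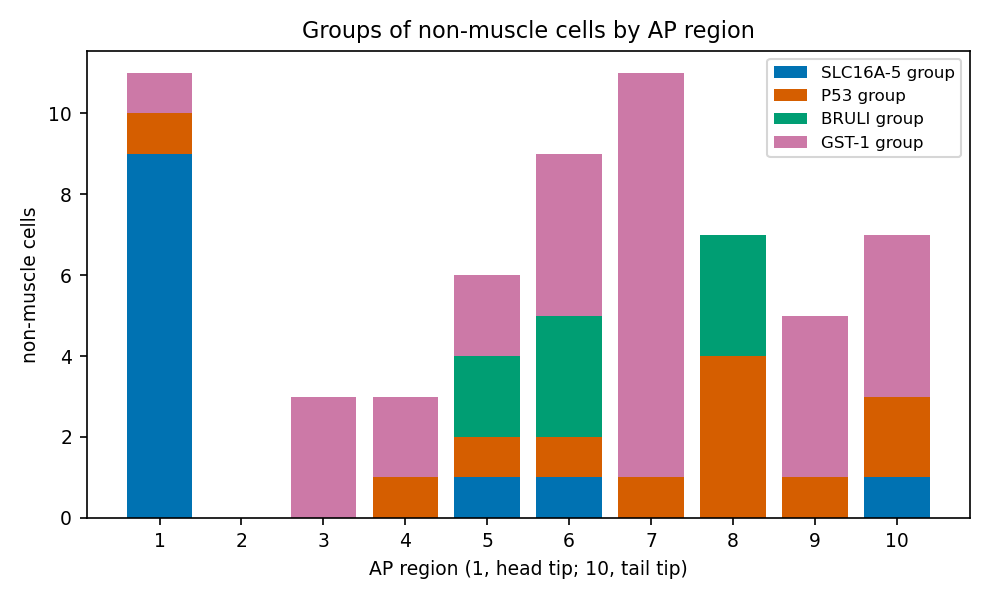
Number of non-muscle cells (y axis) in each AP region (x axis), stacked by group. The SLC16A-5 group makes up 9 of 11 cells in region 1, the GST-1 group 10 of 11 in region 7, and region 2 has no non-muscle cell.

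Transcripts that are patterned along the AP axis were looked for next. The authors chose 44 regional genes from muscle cells of this series and from in situ hybridization (ISH), and 43 of them were in the count table. Of these 43, 36 were found in any non-muscle cell, and 10 had the larger share in non-muscle cells. Over all 21464 transcripts found in any cell, 64.5% had the larger share in non-muscle cells. The median share was 12.9% of non-muscle cells and 25.2% of muscle cells. The genes named in the next sentences were chosen after their values had been seen.

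In region 1, 4 of the 43 regional genes were found in 9 or more of the 11 non-muscle cells, 15 in 1 to 7 of them and 24 in none. Those at 0 of 11 included *sFRP-1* and *wnt2*, of the Wnt pathway, *notum*, a Wnt inhibitor, and *ndl-2*, while *ndl-1* and *ndl-5* were each found in 4. *ndk* (dd_Smed_v4_11285_0_1), an FGF receptor-like gene whose loss lets brain tissue spread in planarians, was found in 9 of 11 non-muscle cells and in 11 of 11 muscle cells of region 1, and in 4 of the 51 non-muscle cells of regions 3 to 10. *ndl-4*, a gene of the same family, was found in 9 of 11 non-muscle and 9 of 11 muscle cells of region 1, and in 4 of 51. *fz5/8-3*, a Frizzled receptor for Wnt proteins, was found in 9 of 11 non-muscle cells and 3 of 11 muscle cells of region 1, and in 2 of 51. *prep*, a homeobox gene needed for the head, was found in 10 of 11 non-muscle cells and 8 of 11 muscle cells of region 1, and in 12 of 51.

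The 4 genes were picked for their high share in these same 11 cells. Their occurrence together in single cells of region 1 therefore follows largely from that choice. At least 3 of the 4 were found in 9 of 11 non-muscle cells of region 1, and in 0 of the 51 of regions 3 to 10, with an upper limit of 6.98%. Among muscle cells it was 7 of 11 in region 1 and 2 in all of regions 2 to 10 (1.92%). In region 1, cell r01_504 was at 797 cpm of *ndk*, 593 cpm of *ndl-4*, 430.9 cpm of *fz5/8-3* and 1080 cpm of *prep*. Cell r01_453, of the GST-1 group, had 0 cpm of the first 3 and 1076 cpm of *prep*. Cell r01_473, of the P53 group, had all 4, so the set was not limited to the SLC16A-5 group.

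Within the SLC16A-5 group these genes differed with the region. *ndk*, *ndl-4* and *fz5/8-3* were each found in 8 of the 9 cells of region 1 and in 0 of the 3 cells of the same group from regions 5, 6 and 10. *prep* was found in 8 of 9 and in 1 of 3. *sp5*, a transcription factor, was found in 0 of 9 and in 3 of 3. *Post-2c*, a Hox gene, was found in 0 of 9 and in 2 of 3. Cells that shared the leading transcripts of the group thus differed in these genes by region, with 3 cells on one side.

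*Post-2c* was found in 0 of the 23 non-muscle cells of regions 1 to 5 and in 10 of the 39 of regions 6 to 10, against 24 of the 59 muscle cells of regions 6 to 10. In region 10 it was found in 2 of 7 non-muscle cells and 10 of 12 muscle cells, and in region 8 in 3 of 7 and 4 of 13. *wntP-2*, a posterior Wnt gene, was found in 0 of 62 non-muscle cells and in 45 of 115 muscle cells.

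**Figure D4:**
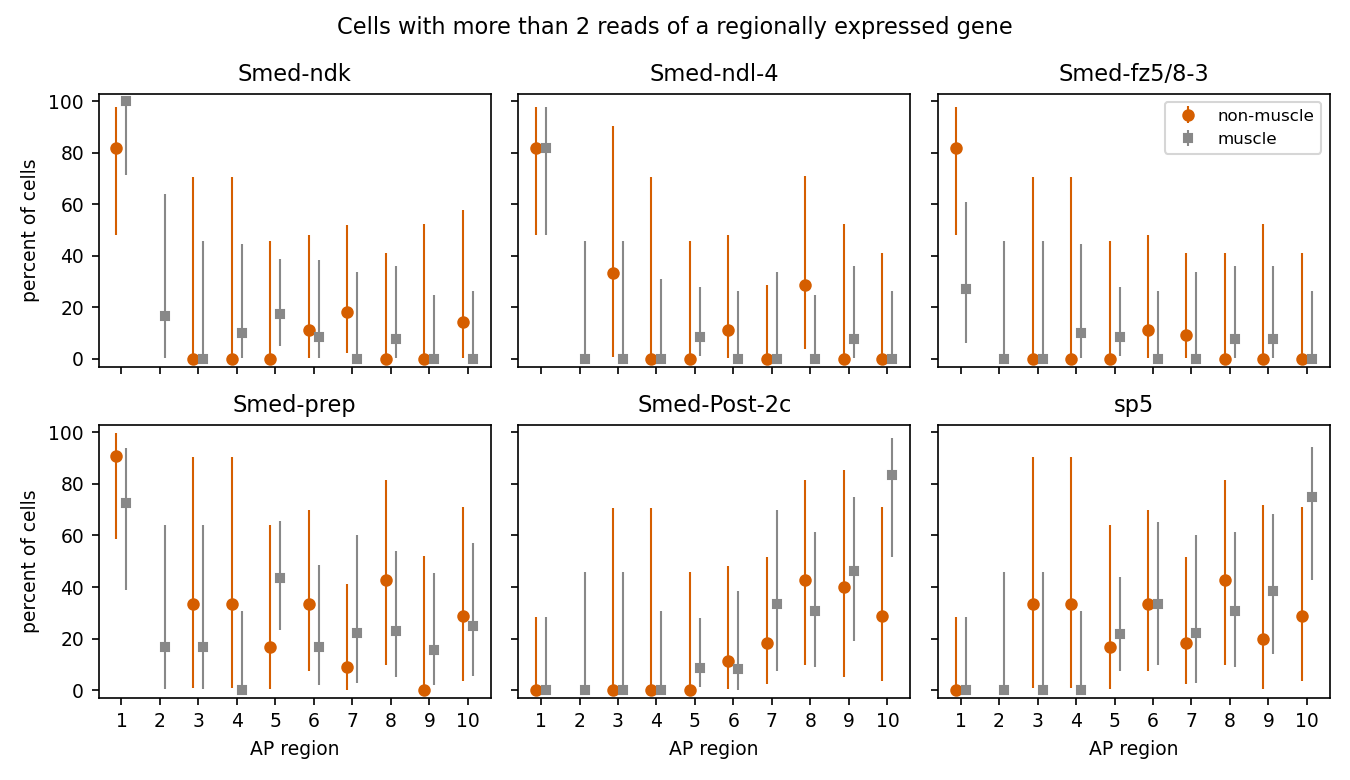
Percent of cells with more than 2 reads (y axis) of 6 regional genes in each AP region (x axis), with non-muscle cells as orange circles and muscle cells as grey squares, and exact binomial 95% intervals as bars. In region 1, *ndk*, *ndl-4* and *fz5/8-3* each reach 81.8% of non-muscle cells, and *Post-2c* is at 0% of them in regions 1 to 5.

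The test along the axis used the summed counts of the non-muscle cells of each region, and fitted log2 expression against the number of the region over 9 sums (edgeR's quasi-likelihood test, Benjamini-Hochberg adjustment over 13349 transcripts). It called 5 transcripts at an adjusted p below 0.05, which is 0.0375% of those tested, with 4 higher toward the tail (0.03%) and 1 higher toward the head (0.00749%). None of the 30 regional genes tested was called in this fit. Among the alternatives, DESeq2 called *Post-2c* (slope 1.40, adjusted p = 0.00417) and dd_13065 (slope 1.06, adjusted p = 0.0340). On simulated sums of this kind, 67.24% of the calls of DESeq2 were false. The fit by edgeR with the number range as a covariate called *fz5/8-3* (slope -1.26, adjusted p = 0.0344). That fit used 17 sums of region and range, so a region could enter more than once. In the fit over 9 sums, 7 of these 30 genes had an unadjusted p below 0.05, which is 23.3%, against 7.42% of all transcripts. For *ndl-4* the slope was -0.89 log2 units per region (SE 0.29, edgeR adjusted p = 0.377), for *fz5/8-3* -0.93 (SE 0.33, adjusted p = 0.422) and for *Post-2c* 1.48 (SE 0.54, adjusted p = 0.450). The slopes of *fz5/8-3* and *ndk* turned positive when region 1 was left out.

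The transcript called toward the head was dd_Smed_v4_18131_0_1, with a slope of -2.22 (SE 0.33, edgeR adjusted p = 0.0393). It was found in 8 of 11 non-muscle cells of region 1, at 20.99 to 1462 cpm, all of them in the SLC16A-5 group. It had 0 reads in the non-muscle cells of every other region and was found in 0 of 115 muscle cells.

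The calls toward the tail rested on few cells. *TPH1* (dd_Smed_v4_8392_0_1), tryptophan hydroxylase of serotonin synthesis, had a slope of 3.40 (SE 0.57, edgeR adjusted p = 0.0393), and cell r09_522 gave 91.3% of its reads. The same cell gave 94.4% of the reads of dd_Smed_v4_32250_0_1 (slope 2.56, SE 0.42, edgeR adjusted p = 0.0393) and 72.3% of those of dd_Smed_v4_7440_0_1 (slope 1.81, SE 0.33, edgeR adjusted p = 0.0440). Without cells r09_522 and r06_449, 2 transcripts were called, and *TPH1* had a slope of 1.26 (edgeR adjusted p = 0.569). Those called were dd_Smed_v4_18131_0_1 and the homeobox gene *ALX1* (dd_Smed_v4_21801_0_1), which had a slope of 1.76 (SE 0.31, edgeR adjusted p = 0.0393) with all cells and took 76.04% of its reads from cell r10_556. Neither *TPH1* nor *ALX1* was found in more than 7 non-muscle cells.

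Another split was made by a single abundant transcript without a name, dd_Smed_v4_3_0_1, which was picked after its values had been seen. In 15 non-muscle cells it was at 27345 to 124627 cpm with a median of 54207 cpm. In the other 47 it was at 0 to 1661 cpm with a median of 46.2 cpm, and in muscle cells at 0 to 1076 cpm with a median of 84.5 cpm. No cell lay between 1661 and 27345 cpm. The 15 cells included 6 of the 8 cells of the BRULI group and 9 of the 30 of the GST-1 group, and none of the 12 cells of the SLC16A-5 group or the 12 of the P53 group. Cell r09_522 was 1 of the 15, and 14 remained without it.

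The 15 cells came from regions 3, 6, 7, 8 and 9, with 6 of the 11 cells of region 7, while regions 1, 4, 5 and 10 had 0 of 27. The number range moved with this, and its part was not tested: the share was 2 of 16 in range A, 1 of 17 in range B and 12 of 29 in range C. Within range C it was 12 of 24 in the other regions and 0 of 5 in regions 1, 4, 5 and 10. Transcripts with a like pattern over the 62 cells were dd_Smed_v4_1694_0_1 (Pearson r = 0.81, found in 14 of the 15 and 3 of the 47) and dd_Smed_v4_54_0_1 (r = 0.79, in 14 of the 15 and 2 of the 47). These cells share libraries of unequal depth, so r is a description only. The other 47 include all 24 cells of the SLC16A-5 and P53 groups. Within the BRULI and GST-1 groups, which hold all 15, *ZFP-1* was found in 14 of the 15 and in 2 of the other 23, *P53* in 3 of the 15 and in 2 of the 23, and *SMEDWI-1* in 8 of the 15 and in 15 of the 23. Over all cells, *GK*, named by its match to glycerol kinase and seen in the epidermis by ISH, was found in 10 of the 15 and in 9 of the 47. It was chosen after its values had been seen, and the other epidermis ISH genes are not given here. Of the epidermal list, *SPTBN1* was found in 14 of the 15 and 31 of the 47. The *beta-actin* contig dd_Smed_v4_285_0_1 was found in 12 of the 15 and 42 of the 47. Both were found in all 24 cells of the SLC16A-5 and P53 groups. These shares therefore do not compare the 15 with the other 23 cells of the BRULI and GST-1 groups.

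**Figure D5:**
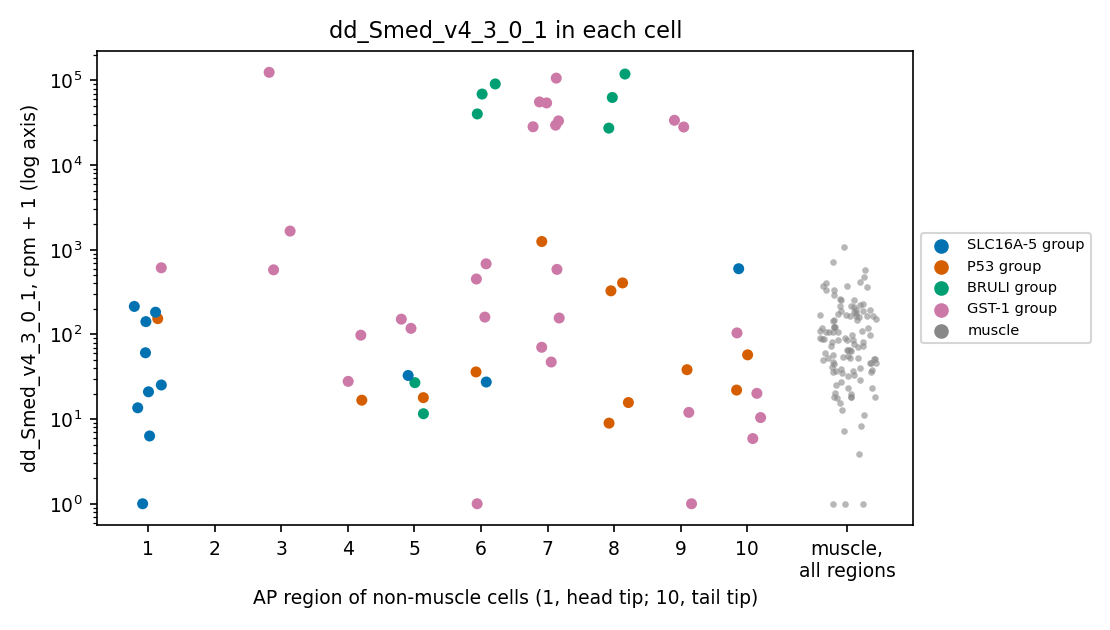
Level of dd_Smed_v4_3_0_1, as cpm + 1 on a log axis, in each non-muscle cell by AP region, coloured by group, with muscle cells at the right. The 15 high cells lie at 27345 cpm or more, apart from the other 47 at 1661 cpm or less.

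Transcripts of 1 cell were counted last. A transcript was taken as belonging to 1 cell when it was at 100 cpm or more there and not found in any other non-muscle cell. There were 600 of these in 51 cells, and 92.7% of them were in the 49 cells other than r09_522 and r06_449. Most cells had few, with a median of 4. Cell r05_558 had 89, which took 3.78% of its reads, and 47 of them were found in no muscle cell. Next came cells r06_439 and r06_449 with 46 and 43, cell r01_453 with 38 and cell r07_375 with 33. All 5 belonged to the GST-1 group, whose cells held 455 of the 600. This group made up 30 of the 62 cells and had the lowest median of reads among the groups, 211799. The level of 100 cpm takes fewer reads in a shallower cell. The median per cell was 10 in the GST-1 group, 9 in the BRULI group, 2.5 in the SLC16A-5 group and 1 in the P53 group.

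Among those with a name, *INX4*, an innexin of gap junctions, was at 797 cpm in cell r06_449, *NPR1*, named by its match to a natriuretic peptide receptor, at 473.1 cpm in cell r06_550, and *TLX3*, a homeobox gene, at 394.9 cpm in cell r07_570. They were found in 10, 2 and 8 muscle cells, so none was limited to its cell in the series. The highest without a name were dd_Smed_v4_5690_0_1, at 5553 cpm in cell r06_439, and dd_Smed_v4_12179_0_1, at 4429 cpm in cell r06_449, neither of which was found in a muscle cell.

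Of the transcripts found in 2 to 6 non-muscle cells, a pair of cells shared a median of 2. Cell r05_558 and cell r01_453 shared 118, which was 32.9% of those of cell r05_558 and 51.1% of those of cell r01_453. The next pairs were r08_553 with r07_579, which shared 74, and r08_600 with r08_553, which shared 66, and these cells had 5 to 8 transcripts of 1 cell. The one with a name shared by r05_558 and r01_453 was *CELF5*, an RNA-binding protein seen in the central nervous system by ISH, at 117 cpm in cell r05_558 and 1649 cpm in cell r01_453, and in 0 muscle cells. *PC-2*, the prohormone convertase that processes neuropeptides, was at 1772 cpm in cell r05_558, the highest of the 8 non-muscle cells that had it, and had 1 read in cell r01_453. It was found in 25 muscle cells, at up to 1738 cpm. The next were cell r06_541 with 861 cpm and cell r07_570 with 628 cpm. These cells were singled out after their values had been seen, and they were given no cell type name.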

How the data were processed

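The authors deposited a table of read counts for 177 cells and 26560 transcripts of the dd_Smed_v4 assembly. Base calls were made with CASAVA 1.7.0, adaptors were trimmed with cutadapt and reads of 80 and 40 bases were mapped with Bowtie 1 (names from the submitters' processing notes and the study's methods). Mitochondrial and ribosomal contigs had been removed. Tables of the authors' own comparisons between muscle cells (log2 ratios and Z-scores) were not used. The depth was 53607 to 2702758 reads per non-muscle cell. No 2 columns were identical.

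Counts were scaled to cpm. A transcript was found with more than 2 reads. Names come from the study's annotation of 315 contigs (a planarian gene or best BLASTx match), and other transcripts are given by contig. Cells were grouped on ln(cpm + 1) of transcripts found in at least 3 cells, using the 1000 most variable, centred and scaled, with 5 components and Ward linkage, and the number of groups (3 to 8) was set by the mean silhouette (Python 3.11.15, scikit-learn 1.9.0). For each group the text names up to 5 named and 2 unnamed transcripts with the largest difference from the other non-muscle cells, and genes outside this rule are said to be chosen after seeing values. Counts per region were summed and tested with edgeR 4.0.16 (R 4.3.3). On simulated sums for this slope (13334 transcripts) edgeR recovered 3 of 100 transcripts at a slope of 0.6 and 48 of 100 at 1.2, and 12.07% of its 58 calls were false. Alternatives were DESeq2 1.42.0, limma 3.58.1, other scaling, filters and groupings, thinning to 50000 reads, regions left out and the number range as a covariate. Those without cells r09_522 and r06_449, and those for dd_Smed_v4_3_0_1, were chosen after seeing the data. The members and lists were chosen with earlier results of these data known. No doublet caller was run.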

Additional observations from a re-analysis of the deposited data

Results flagged for a closer look

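For 22 values the share of non-muscle cells was compared over the 9 regions, and 10 had a region far from the others by Dixon's 95% criterion for 9 values. Chance flags about 1 in 20 groups, but the values include genes and a cell group picked with their regional pattern known, so the tally cannot be read against that rate. Region 1 stood apart at 81.8% for the SLC16A-5 group (next 16.7%), 81.8% for the *SLC16A-5* transcript (next 22.2%), 81.8% for *fz5/8-3* (next 11.1%), 81.8% for *ndk* (next 18.2%), 81.8% for *ndl-4* (next 33.3%) and 90.9% for *prep* (next 42.9%). These values share the same 11 cells. *TNNI2* was at 0% and dd_13735 at 0% in region 4, the *beta-actin* contig dd_Smed_v4_285_0_1 at 33.3% in region 3 and *fz4-1* at 40% in region 9 (next 16.7%). Regions 3 and 4 had 3 cells each and region 9 had 5.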

How the results depend on the processing

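The count of transcripts with a slope along the AP axis depended on the processing. Against 5 in edgeR, it was 193 with DESeq2 (117 up, 76 down), 3 with library size alone and 79 without a filter on low counts. With the number range as a covariate it was 164 (21 up, 143 down), over 17 sums of region and range instead of 9. It was 17 without the 10 cells with the most transcripts and 2 without cells r09_522 and r06_449. With limma it was 0, with 366 at an unadjusted p below 0.05. Leaving out 1 region gave 0 to 15, with 0 without region 3 or region 4, 13 without region 1 and 15 without region 10. In the simulation 67.24% of the calls of DESeq2 were false. For the 5 called transcripts the direction was kept in all 79 values of the alternatives, of which 42 stayed called and 37 did not. The cause was not tested.

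The number of cell groups was 7 with the variable transcripts of the study's methods and 8 with 10 components, and 4 under the other 5 alternatives. The 12 cells of the SLC16A-5 group stayed in a group of 12 in every alternative that kept all of them, while the other groups broke up in part. The BRULI group had 3 of 8 cells together with the variable transcripts of the methods and 5 of 8 after thinning, the P53 group 7 of 12 with 10 components, and the GST-1 group 10 of 30 with the variable transcripts of the methods. Transcripts of 1 cell numbered 38 at 1000 cpm or more, 355 with 0 reads in the other cells and 1631 after thinning. *TNNI2* was found in 41.9% of non-muscle cells after thinning and in 66.1% at 10 or more reads. No paired analysis was possible because cells carry no replicate number shared between regions. Region sums of 3 to 11 cells limit the precision.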

Other observations

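The most abundant transcripts were mostly shared with muscle. The unnamed dd_Smed_v4_1635_1_1 took the largest share of reads in 32 of the 62 non-muscle cells, with a median of 3.41% in non-muscle cells and 2.61% in muscle cells. dd_Smed_v4_37_0_1 differed, with a median of 0.0632% in non-muscle cells and 2.82% in muscle cells, and it led in 3 non-muscle cells. Genes with an ISH pattern in the epidermis had a median share of 25.8% in non-muscle cells and 13.9% in muscle cells (9 of 15 with the larger share in non-muscle cells), those of the gut 26.6% and 12.2% (8 of 12), and those of the central nervous system 13.7% and 17.8% (21 of 46), beside 64.5% of all transcripts.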
